A study of Mus musculus with 6 samples.

Results

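The transcripts of 10 pluripotency genes of the inner cell mass, *Pou5f1*, *Nanog*, *Sox2*, *Esrrb*, *Klf2*, *Klf4*, *Tdgf1*, *Fgf4*, *Zfp42* and *Tfcp2l1*, were examined in blastocysts, with the uterine luminal layer as the background. They were chosen by symbol, and all 10 were found among the 23420 genes of the count tables. Blastocysts and microdissected luminal layer were collected on day 4 of pregnancy, at 8 pm, when attachment is about to begin. Control females were Lif-floxed/floxed and received PBS. *Lif* eKO females were Lif-floxed/floxed Ltf-Cre/+ and also received PBS, so that *Lif* (leukemia inhibitory factor) was deleted where lactoferrin drives Cre, in the uterine epithelium, while the stroma kept the gene. The last group was *Lif* eKO females injected i.p. with recombinant Lif (rLif, 20 µg per head) at 10 am and 6 pm and dissected 2 h later. The floxed allele was thus common to every female. The blastocysts of all 3 groups were labelled Lif-floxed/+, and their groups name the uterus from which they were flushed. Each group was 1 library made from pooled blastocysts or pooled RNA of several animals. The values below therefore compare single libraries without a replicate check. Intervals cover counting error only, and no p-value is given. The age of the mice was not given in the sources used here.

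The blastocyst holds an outer trophectoderm and an inner cell mass, which separates into the pluripotent epiblast and the primitive endoderm. *Pou5f1* (Oct4), *Sox2* and *Nanog* encode the core transcription factors of the epiblast, and *Klf2*, *Klf4*, *Esrrb*, *Tfcp2l1* and *Zfp42* (Rex1) belong to the naive state. *Fgf4* encodes a growth factor secreted by epiblast cells, and *Tdgf1* (Cripto) a co-receptor for Nodal. Lif maintains mouse embryonic stem cells in culture through Stat3, upstream of *Klf4* and *Tfcp2l1*, and in the uterus it acts on the luminal epithelium. In pooled blastocysts, fewer cells of a lineage and less RNA per cell cannot be told apart.

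All 10 genes are annotated as protein coding, and none had exons that overlapped those of another gene in the tables. They lie on 9 chromosomes of GRCm38/mm10. *Nanog* spans chr6:122707568-122713778 on the plus strand, *Klf4* chr4:55527137-55532475 on the minus strand and *Tdgf1* chr9:110939608-110946158 on the minus strand. GENCODE lists processed pseudogenes under the names of *Nanog* (2), *Tdgf1* (2) and *Zfp42* (1). None of these pseudogenes has a row in the tables, and reads shared with them could have been split or dropped. The promoter sequences (250 bases before to 50 after a start site, RefSeq, GRCm38.p6) of *Nanog*, *Klf4* and *Tdgf1* are printed. In rLif-treated blastocysts, described below, *Nanog* had the highest log2 ratio of the 10 genes against eKO. Against control, *Klf4* had the highest and *Tdgf1* the lowest. Capitals mark matches, on either strand, to the letters CATTGT (Sox), ATGCAAA (Oct), GGGNGTG (Klf), TTCNNNGAA (STAT) and AAGGTCA (Esrrb).
Nanog, chr6:122707315-122707614, plus strand: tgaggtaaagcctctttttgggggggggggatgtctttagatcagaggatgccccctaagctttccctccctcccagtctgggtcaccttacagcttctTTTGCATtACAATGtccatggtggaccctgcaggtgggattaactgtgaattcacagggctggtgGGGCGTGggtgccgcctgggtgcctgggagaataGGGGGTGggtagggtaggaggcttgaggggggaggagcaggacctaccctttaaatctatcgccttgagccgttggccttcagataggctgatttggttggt
Klf4, chr4:55532426-55532725, minus strand: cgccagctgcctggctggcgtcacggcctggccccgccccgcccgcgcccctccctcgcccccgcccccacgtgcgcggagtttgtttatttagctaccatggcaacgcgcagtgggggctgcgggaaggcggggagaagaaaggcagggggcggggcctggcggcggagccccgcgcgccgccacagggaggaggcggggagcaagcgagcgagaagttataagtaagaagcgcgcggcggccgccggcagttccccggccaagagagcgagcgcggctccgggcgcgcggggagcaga
Tdgf1, chr9:110946109-110946408, minus strand: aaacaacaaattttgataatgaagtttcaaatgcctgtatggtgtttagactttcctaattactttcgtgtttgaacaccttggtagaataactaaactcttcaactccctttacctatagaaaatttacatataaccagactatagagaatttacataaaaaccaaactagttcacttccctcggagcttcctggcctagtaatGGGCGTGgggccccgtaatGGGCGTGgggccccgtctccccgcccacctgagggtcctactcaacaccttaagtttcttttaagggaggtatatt

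The *Nanog* promoter held an Oct match 151 bases before its start site and a Sox match 143 bases before it, separated by 1 base. This arrangement of both motifs was found in 2 of 32851 promoters, and both were the overlapping promoters listed for *Nanog*. *Klf4* held no match to any of the 5 motifs. *Tdgf1* held 2 Klf matches, 45 and 26 bases before its start site. The 10 genes had 13 promoters in the table, since *Nanog*, *Esrrb* and *Pou5f1* had 2 each. The Klf letters were found in 7 of the 13 and in 29.2% of all promoters, the Oct letters in 4 (4.63% of all) and the Sox letters in 4 (12.6% of all). The 2 *Nanog* promoters overlap, so its matches to these motifs are counted in both. By gene, the Oct letters were in *Nanog*, *Sox2* and *Zfp42*, and the Sox letters in *Nanog*, *Esrrb* and *Pou5f1*. The Klf letters were in *Nanog*, *Esrrb*, *Pou5f1*, *Tdgf1*, *Tfcp2l1* and *Zfp42*. The STAT letters were found in 1 of the 13, that of *Esrrb*, and in 8.30% of all promoters, and the Esrrb letters in 0 (4.72% of all). The median number of CpG dinucleotides was 11 in the 13 promoters and 7 in all. A match is a description of letters, not of a bound site.

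The depth was similar among the blastocyst libraries (18996158 to 19638852 counts) and among the luminal ones (23850565 to 28460465). Of all blastocyst counts, the 10 genes made up 0.238% in control, 0.256% in eKO and 0.275% with rLif. The lineage identity of the blastocysts was checked by markers. All 12 trophectoderm and all 12 primitive endoderm markers examined were detected in blastocysts. Of 12 uterine epithelial markers, 8 had fewer than 100 counts in every blastocyst library, and *Wnt7a*, a gene of the uterine epithelium, had 0 in each. The summed level of the stromal markers was 20.9, 14.6 and 10.4 TPM (a level per exon length, scaled to the same total in every library) in control, eKO and rLif-treated blastocysts. That of the immune markers was 131, 257 and 44.2 TPM, most of it from *Lyz2* (976, 2128 and 289 counts). Both sums were lowest in the rLif-treated library, whereas that of the endothelial markers was highest there (17.7, 22.0 and 30.8 TPM). Most of the endothelial sum came from *Tie1* (312, 525 and 870 counts), while *Esam* was lowest with rLif (86, 74 and 66 counts). The part of these cells in the differences below was not tested.

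Levels in the blastocyst were described first, per exon length. In the control library, *Tdgf1* was the most abundant of the 10 transcripts with 576 TPM. *Pou5f1* (475 TPM) and *Zfp42* (457 TPM) came next, and their counting intervals overlapped. *Nanog* (199 TPM), *Tfcp2l1* (171 TPM) and *Klf2* (142 TPM) formed the middle of the order. *Fgf4* had 79.5 TPM, *Sox2* 57.0 TPM, *Klf4* 37.7 TPM and *Esrrb* 24.1 TPM. The order in the eKO library was the same except that *Tfcp2l1* (202 TPM) stood above *Nanog* (180 TPM). In the rLif-treated library, *Pou5f1* led with 641 TPM, while *Zfp42* (547 TPM) and *Tdgf1* (542 TPM) could not be ordered within counting error. *Nanog* had 298 TPM there and *Klf2* (191 TPM) stood beside *Tfcp2l1* (182 TPM), again with overlapping intervals. *Fgf4*, *Sox2*, *Klf4* and *Esrrb* kept the last 4 places in all 3 libraries.

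**Figure D1:**
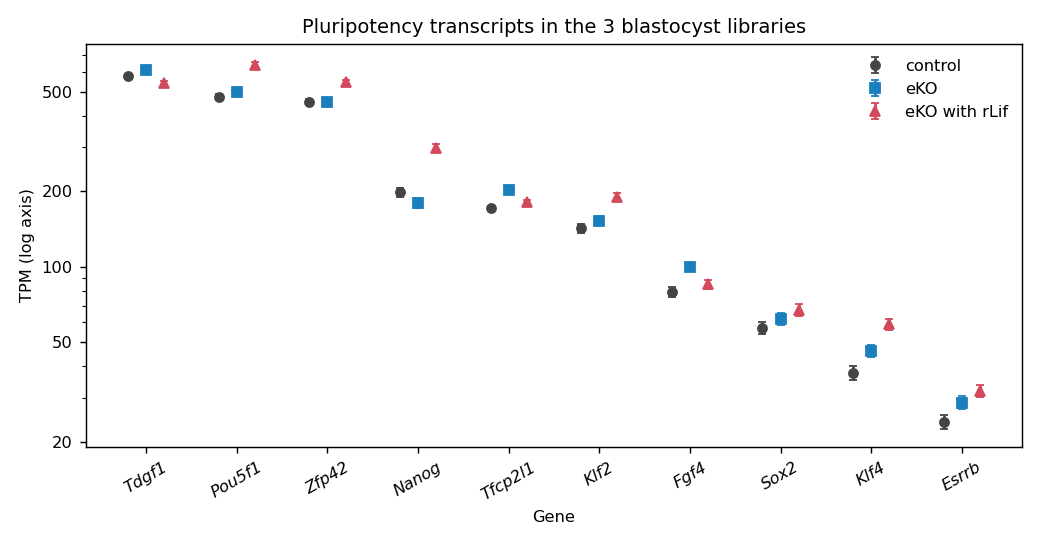
TPM (log axis) of the 10 pluripotency genes in the control, eKO and rLif-treated blastocyst libraries (1 pooled library each); bars are exact Poisson 95% intervals and cover counting error only. *Nanog*, *Pou5f1*, *Klf2* and *Klf4* were highest in the rLif-treated library, at 298, 641, 191 and 59.1 TPM, whereas *Tdgf1*, *Fgf4* and *Tfcp2l1* were highest in the eKO library.

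The core factors were followed across the libraries. For *Pou5f1*, 5810 counts were found in control blastocysts, 6172 in eKO and 8033 after rLif. *Nanog* had 2281, 2094 and 3512 counts. Both were close in the 2 libraries without rLif and stood higher with it. *Sox2* had 1185, 1305 and 1435 counts, a narrow range that increased from control to eKO to rLif-treated blastocysts.

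Among the naive-state factors, the counts of *Klf4* were 971 in control, 1204 in eKO and 1561 after rLif, and its paralog *Klf2* had 2188, 2388 and 3006. *Esrrb*, an orphan nuclear receptor, had 943, 1140 and 1276 counts. These 3 genes shared the order seen for *Sox2*. *Zfp42*, a zinc finger gene used as a marker of the naive state, had 6967, 7063 and 8544 counts, and thus resembled *Pou5f1*. *Tfcp2l1* differed from them, with 13464, 16098 and 14665 counts and its highest value in eKO. The signaling genes also peaked in eKO. *Fgf4* had 2041, 2599 and 2245 counts, and *Tdgf1* had 9410, 10121 and 9059.

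Whether blastocysts from *Lif* eKO uteri differed from those of control uteri in these transcripts was examined first. The rule for a call was that the whole 95% interval of a ratio exceeded 2-fold in either direction. None of the 10 genes was called, against 3.15% of the 14873 genes analysed in blastocysts. The 10 log2 ratios ranged from -0.16 (*Nanog*) to 0.31 (*Fgf4*), with a median of 0.10 beside -0.003 for all genes. *Nanog* was lower in eKO by a small margin (interval -0.25 to -0.07). *Fgf4* (0.23 to 0.40), *Klf4* (0.27, interval 0.15 to 0.40), *Esrrb* (0.24, interval 0.11 to 0.36) and *Tfcp2l1* (0.22, interval 0.19 to 0.25) were higher in eKO. *Pou5f1* (0.05), *Sox2* (0.10) and *Zfp42* (-0.02) had intervals that held 0. Counting error alone was a weak measure at this depth. The interval lay above 0 for 6 of the 10 genes and for 22.8% of all genes, and below 0 for 1 of them and for 22.0% of all genes.

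The blastocysts of rLif-treated and untreated *Lif* eKO uteri were compared next. Again none of the 10 genes was called, against 3.75% of all genes. *Nanog* had the largest difference, with a log2 ratio of 0.75 (interval 0.68 to 0.83), that is 1.69-fold higher after rLif. *Pou5f1* (0.39, interval 0.34 to 0.44), *Klf4* (0.38, interval 0.27 to 0.49), *Klf2* (0.34, interval 0.26 to 0.42) and *Zfp42* (0.28, interval 0.24 to 0.33) were also higher. *Esrrb* (0.17) and *Sox2* (0.14) exceeded the untreated library by less. *Fgf4* (-0.20, interval -0.29 to -0.12), *Tdgf1* (-0.15, interval -0.19 to -0.11) and *Tfcp2l1* (-0.13, interval -0.16 to -0.09) were lower after rLif. The interval lay above 0 for 7 of the 10 genes, beside 25.2% of all genes, and below 0 for 3, beside 27.4% of all genes. The median was 0.23 beside -0.01 for all genes.

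Against control, rLif-treated blastocysts likewise had no called gene among the 10, while 4.94% of all genes were called. *Klf4* (log2 ratio 0.66, interval 0.54 to 0.77) and *Nanog* (0.59, interval 0.52 to 0.67) were 1.58-fold and 1.51-fold higher than in control. *Pou5f1* (0.44, interval 0.39 to 0.49), *Klf2* (0.43, interval 0.35 to 0.51) and *Esrrb* (0.41, interval 0.29 to 0.53) followed. *Zfp42* (0.27) and *Sox2* (0.25) were intermediate, and *Fgf4* (0.11) and *Tfcp2l1* (0.10) close to control. *Tdgf1* was the only gene of the 10 that was lower (-0.08, interval -0.12 to -0.04). The interval lay above 0 for 9 genes (26.2% of all genes) and below 0 for 1 (26.7% of all genes), and the median was 0.34 beside -0.01. This comparison and the preceding ones share libraries, so that they are not independent.

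Since all 10 genes fell in the most abundant of 3 equal classes, the 4958 genes of that class served as their background. An interval without 0 was common in it, in 57.2% (eKO over control), 68.3% (rLif over control) and 70.3% (rLif over eKO) of the class. In this class, the central 80% of log2 ratios spanned -0.33 to 0.30 for rLif-treated against untreated eKO blastocysts. *Nanog* stood above 99.5% of the class in that comparison, *Pou5f1* above 94.9% and *Klf4* above 94.7%, while *Fgf4* stood above 18.5%. Against control, *Klf4* stood above 99.1% of the class, *Nanog* above 98.8%, *Pou5f1* above 96.4%, *Klf2* above 96.0% and *Esrrb* above 95.3%. For eKO against control, whose central 80% spanned -0.18 to 0.23, *Fgf4* stood above 95.2% and *Nanog* above 12.7%. These ranks place single genes in 1 pair of libraries and are no test. The rLif-treated library held the highest value of 7 of the 10 genes, beside 44.4% of the genes in the class.

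**Figure D2:**
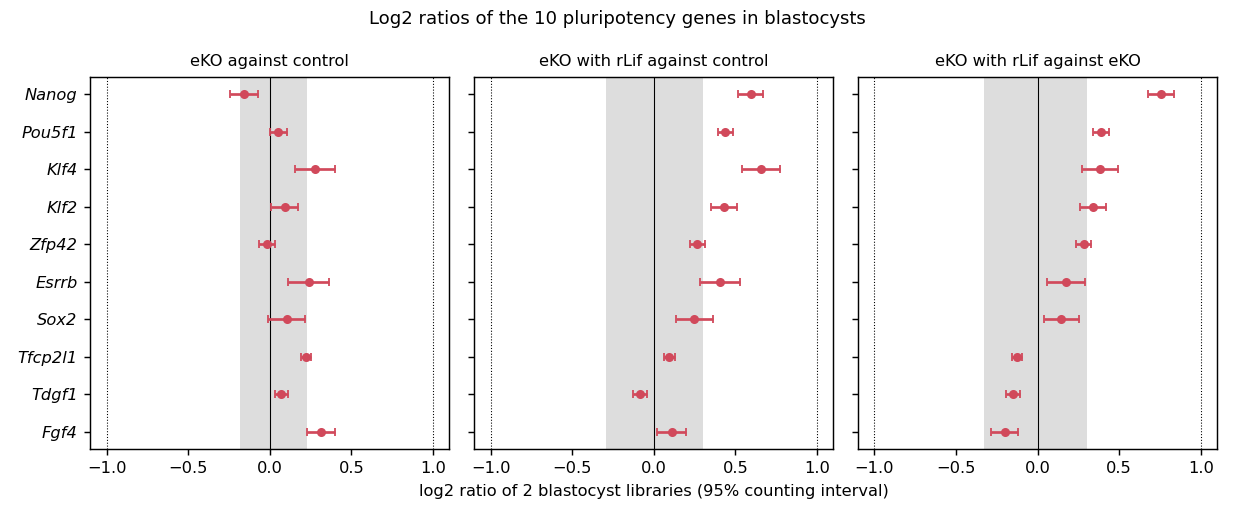
Log2 ratios (x axis) of the 10 pluripotency genes for each pair of blastocyst libraries, with exact 95% counting intervals as bars; grey bands hold the central 80% of the most abundant class of genes and dotted lines mark 2-fold. All points lie within the 2-fold lines, and after rLif *Nanog* (0.75 against eKO) and *Klf4* (0.66 against control) lie beyond the bands.

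Ratios of transcripts within a library do not depend on the scaling between libraries and were therefore compared. Per exon length, *Nanog* was at 0.344 of *Tdgf1* in control (interval 0.329 to 0.361), 0.294 in eKO (0.280 to 0.308) and 0.551 in rLif-treated blastocysts (0.530 to 0.573). The intervals of the 3 libraries did not overlap. The ratio of *Pou5f1* to *Tdgf1* was 0.825 in control and 0.814 in eKO, with overlapping intervals, and 1.18 after rLif (1.15 to 1.22). That of *Klf4* to *Tfcp2l1* was 0.220 in control (0.206 to 0.234), 0.228 in eKO (0.215 to 0.242) and 0.324 after rLif (0.307 to 0.342). The 10 genes thus did not move as 1 block. Inside the inner cell mass genes, however, *Nanog* relative to *Gata6*, a primitive endoderm factor, was 1.56 in control, 1.39 in eKO and 1.54 after rLif, and the first and last of these intervals overlapped. *Pou5f1* relative to *Cdx2*, a trophectoderm factor, was 0.730 in control, 0.572 in eKO and 0.646 after rLif, so that it was highest in control.

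The summed level of the 10 genes was 2219 TPM in control, 2335 TPM in eKO and 2644 TPM in rLif-treated blastocysts. Relative to the sum of the 12 trophectoderm markers it was 0.207, 0.206 and 0.259, and relative to the 12 primitive endoderm markers 2.17, 2.19 and 2.90. Both ratios were highest after rLif. The marker sums themselves were lower there. The trophectoderm sum was 10699, 11361 and 10209 TPM and was led by the keratins *Krt18* and *Krt8*, and the primitive endoderm sum was 1023, 1067 and 913 TPM.

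Other genes of pluripotency were then set beside the 10. Of 24 such genes, none was called in either comparison with control, beside 3.15% (eKO) and 4.94% (rLif-treated eKO) of all genes. For rLif-treated against untreated eKO, 1 was called, beside 3.75% of all genes. This was *Nr0b1*, an orphan nuclear receptor of stem cells, which had 179, 272 and 91 counts in control, eKO and rLif-treated blastocysts. It fell by 1.57 on the log2 scale between the last 2 (interval -1.93 to -1.22). The list had median log2 ratios of -0.01 (eKO over control), 0.13 (rLif over eKO) and 0.10 (rLif over control). *Dppa5a*, the most abundant of them, had 33911, 37599 and 36256 counts. *Dppa3* (Stella), a maternal and germ line factor, had 12753, 12366 and 19867 counts, with a log2 ratio of 0.69 for rLif-treated against untreated eKO (interval 0.66 to 0.72). *Dppa2*, which was singled out after its values were seen, reached 7060, 7484 and 12573 counts, and the rLif-treated library exceeded eKO by a log2 ratio of 0.76 (0.72 to 0.80). For 14 of the 24 genes the highest value was in the rLif-treated library, beside 35.6% of all genes and 44.4% of the most abundant class.

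Genes of the later, formative epiblast spread more widely than the 10, and 5 of the 12 had fewer than 100 counts in every library. Of 12 genes, 11 passed the minimum of counts. For eKO against control, 3 were called lower and 0 higher, beside 3.15% of all genes called in either direction. For rLif-treated eKO against control, 4 were called lower and 0 higher, beside 4.94%. The counts of *Pou3f1* (Oct6) were 239 in control, 57 in eKO and 24 after rLif, with log2 ratios of -2.10 (interval -2.55 to -1.68) and -3.34 (interval -4.01 to -2.74) against control. *Fgf5*, a marker of the primed epiblast, had 84, 0 and 6 counts. With the 0 set to a floor of 3 counts, its level in eKO was 28.7-fold lower than in control. *Lef1*, an effector of Wnt signaling, had 93, 20 and 0 counts. With rLif, at the same floor, it was 31.6-fold lower than in control and 6.63-fold lower than in eKO. The latter was the only call of the list between those libraries, beside 3.75% of all genes. These are low counts against those of the 10 genes. In the luminal layer *Fgf5* had 0 counts in every library and *Pou3f1* at most 2, whereas *Lef1* had 1107 to 1482 there. The part of uterine cells in the blastocyst counts of *Lef1* was not tested. Only the 2 most abundant members of the list are given here, and both stayed near control. *Dnmt3b*, a DNA methyltransferase, had 5077, 5217 and 5395 counts, and *Etv5* had 2371, 2522 and 2640.

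Signals that act on these genes were examined by lists. For the Lif pathway, 0 of 10 genes were called in any blastocyst comparison. The shares of all genes called were 3.15% (eKO over control), 4.94% (rLif over control) and 3.75% (rLif over eKO). All 10 had an interval above 0 for eKO against control, beside 22.8% of all genes, with a median log2 ratio of 0.26. In the most abundant class, 57.2% of genes had an interval without 0 in that comparison. *Socs3*, the feedback inhibitor of Lif and Stat3 signaling, had 4031, 5440 and 3248 counts and was lower after rLif than in eKO by a log2 ratio of -0.74 (interval -0.80 to -0.67). *Pim3* had 3073, 3662 and 2741 counts. The list did not move as a whole. *Stat3* (3699, 4651 and 4870 counts) and *Pim1* (133, 233 and 284 counts), named after their values were seen, were highest after rLif. For *Fgf4*, 0 of 14 receptors, relays and feedback genes were called, beside the same shares of all genes. Its receptor gene *Fgfr2* had 8444, 10864 and 7591 counts, and thus peaked in eKO as the ligand did. *Dusp6*, a phosphatase induced by this pathway, had 4924, 4300 and 3676 counts.

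In the Nodal pathway, in which *Tdgf1* serves as co-receptor, 12 of 14 genes passed the minimum. None was called for eKO against control, beside 3.15% of all genes. *Nodal*, the ligand, and *Lefty1*, its inhibitor, were called lower after rLif in both comparisons. The shares of all genes called were 4.94% (rLif over control) and 3.75% (rLif over eKO). *Nodal* had 94, 113 and 11 counts, with a log2 ratio of -3.35 for rLif-treated against untreated eKO (interval -4.40 to -2.46), and *Lefty1* had 192, 135 and 46 counts (-1.55, interval -2.06 to -1.05). *Nodal* had 0 counts in every luminal library, and *Lefty1* had 82, 170 and 211. *Lefty2*, the other Lefty inhibitor, named after its values were seen, had 361, 705 and 491 counts in blastocysts and was not called. *Smad4* (3510, 3981 and 3750 counts) and *Pcsk6* (4238, 5392 and 4753 counts), which encode a shared effector and a convertase of the ligand, were not called. The co-receptor transcript *Tdgf1*, far more abundant than *Nodal*, was at 0.900 of its eKO level after rLif.

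In the other lineages of the blastocyst, the called markers were all lower than in the library compared. For rLif-treated blastocysts against control they were 2 of 12 trophectoderm and 3 of 12 primitive endoderm markers, beside 4.94% of all genes. Over the 3 comparisons, the trophectoderm markers called were *Hand1* (253, 56 and 72 counts) and *Elf5* (1988, 1311 and 902 counts). The primitive endoderm markers called were *Cubn* (1587, 469 and 337 counts), *Sox7* (434, 323 and 113), *Foxa2* (103, 61 and 26) and *Lama1* (3274, 4250 and 1658). *Gata6*, an early factor of that lineage, was higher after rLif with 3454, 3547 and 5388 counts (log2 ratio 0.61 against eKO, interval 0.55 to 0.67). The median of the primitive endoderm list for rLif-treated blastocysts was -0.51 against control and -0.51 against eKO. That of the trophectoderm list was -0.06 against control and -0.003 against eKO. Against control, the interval lay above 0 for 4 of the 12 trophectoderm markers (26.2% of all genes). It lay below 0 for 7 of them (26.7% of all genes). *Cdx2* was among those higher, with 11832, 16038 and 18477 counts (log2 ratio 0.61, interval 0.58 to 0.65).

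**Figure D3:**
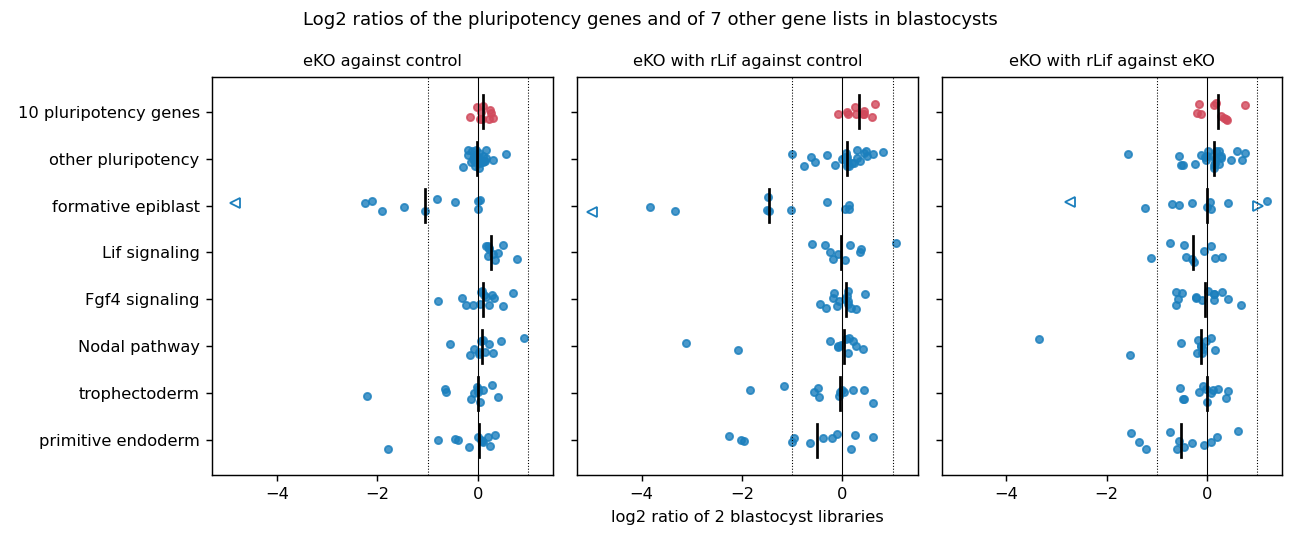
Log2 ratios (x axis) for each pair of blastocyst libraries of the 10 pluripotency genes and of 7 other lists; each point is a gene that passed the minimum of counts, black bars are list medians, open triangles are bounds where a library had 0 counts and dotted lines mark 2-fold. The 10 genes stay within 2-fold, while the formative list has medians of -1.06 and -1.47 against control in the eKO and rLif-treated libraries. Of the 12 formative genes, 5 had fewer than 100 counts in every library.

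In the luminal layer, 7 of the 10 genes had at most 19 counts in any library, and *Tfcp2l1*, *Klf4* and *Klf2* had 266 or more in all. The luminal libraries are called by their labels, because *Lif*, the deleted gene, did not follow them, with 0 counts under the label control, 28 under eKO and 0 under eKO with rLif. The study places Lif of this stage in the uterine glands, so that so few luminal *Lif* counts are a weak check of the labels. *Socs3*, which Lif induces, had the order of the labels in the same libraries, with 1482, 153 and 4242 counts. *Pou5f1*, *Nanog*, *Fgf4* and *Zfp42* had 0 counts in all 3. In the library labelled control, 0 counts had an exact upper limit of 0.146 CPM (counts scaled to library size). The floor of 3 counts was 0.119 CPM there. *Tdgf1* had 0, 0 and 2 counts and *Esrrb* had 0, 4 and 0. *Sox2* had 8, 19 and 0 counts. With the 0 set to a floor of 3 counts, it was 5.74-fold lower with the label eKO with rLif than with the label eKO. The upper interval limit of that ratio was 0.236. *Sox2* was called in that comparison on these few counts. The same *Pou5f1* and *Zfp42* had at least 5810 counts in every blastocyst library.

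*Tfcp2l1*, which is also used by epithelia, had 12313, 6625 and 11209 counts in the same order of labels. It was called lower in eKO against control (log2 ratio -1.08, interval -1.12 to -1.04), a call that was lost with upper-quartile scaling (-1.01) and with edgeR's exact test at an assumed dispersion of 0.1. It was 1.87-fold higher with rLif than in eKO. *Klf4*, a factor of epithelial differentiation, had 900, 520 and 783 counts, with log2 ratios of -0.98 (interval -1.14 to -0.82), -0.25 and 0.73 for eKO against control, rLif-treated against control and rLif-treated against eKO. *Klf2*, which endothelium also expresses, had 852, 484 and 266 counts. Its level under the label eKO was 0.499 of control (interval 0.446 to 0.559), which was not called. With rLif its log2 ratio to control was -1.72 (interval -1.93 to -1.52), and it was called lower, a call that the same exact test did not make. *Tfcp2l1* and *Klf4* were thus lowest under the label eKO, and *Klf2* under the label eKO with rLif. The summed smooth muscle markers followed the order of *Klf2*, with 60.7, 36.7 and 21.3 TPM, and the endothelial ones did not, with 43.0, 60.4 and 58.1 TPM. The part of these cells in the result was not tested. Of the 10 genes 4 passed the minimum here. They gave 1 call in each comparison, beside 17.2% of 15694 genes (eKO over control), 9.16% (rLif over control) and 15.6% (rLif over eKO).

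**Figure D4:**
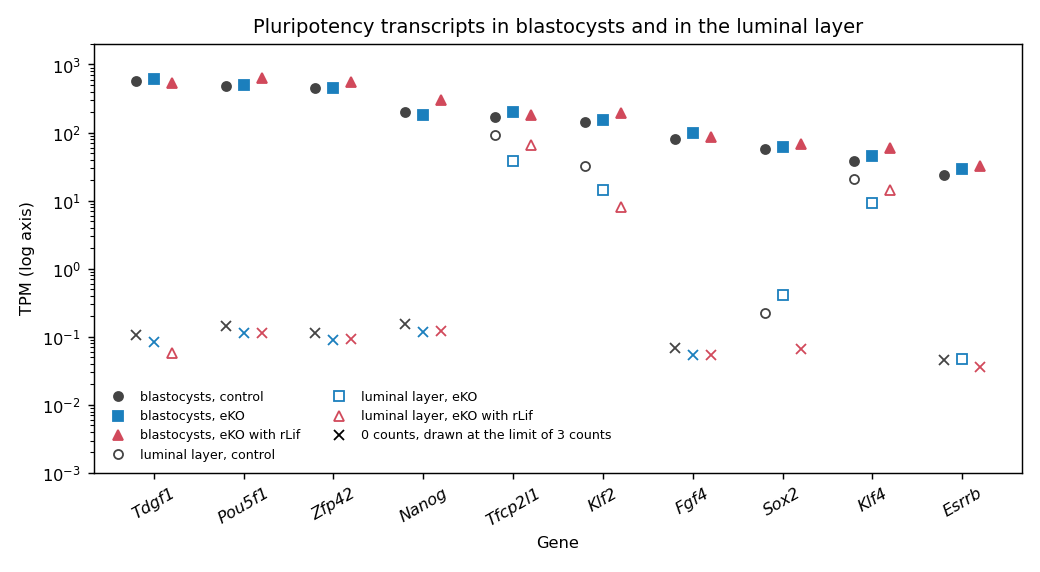
TPM (log axis) of the 10 pluripotency genes in the 3 blastocyst libraries (filled) and the 3 luminal libraries (open); crosses mark 0 counts, drawn at the level of 3 counts, and the 2 tables were scaled separately. *Tfcp2l1*, *Klf2* and *Klf4* are present in both tissues, and the other 7 genes lie below 1 TPM in the luminal layer.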

How the data were processed

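Blastocysts and laser-microdissected luminal layer were profiled by SMART-seq v4 RNA-seq, with 1 pooled library per group. The authors used HISAT2 for alignment to GRCm38/mm10 and featureCounts (Subread 2.0.0) for gene counts. The deposited values are raw counts per gene, although the study's methods describe RPKM. The deposited tables also give exon length. Annotation release, strand and multi-mapping settings were not given in the sources used here.

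Genes with at least 10 counts over the 3 libraries of a tissue were kept (14873 in blastocysts, 15694 in the luminal layer). TMM factors (edgeR 4.0.16 in R 4.3.3) were computed separately for each tissue. TPM used counts and exon length. Ratios have exact 95% Clopper-Pearson intervals and levels exact Poisson intervals (scipy 1.17.1). Reads without molecular identifiers are not independent molecules, so these intervals cover counting error only. A gene was called when its interval lay beyond a log2 ratio of 1. A library with 0 counts was set to a floor of 3 for bounds. Fold values at this floor do not include the counting error of the other library. No replicated test was possible.

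Groups came from the sample labels. The 10 genes, the 12 other lists and the rules were chosen with earlier results of these data known. All 10 genes are named. From the other lists, the 2 most abundant genes and up to 4 called ones may be named, except that 1 gene is not reported here. *Cdx2* and *Wnt7a*, as lineage markers, and *Dppa2*, *Stat3*, *Pim1* and *Lefty2* were named outside this rule, after their values were seen. Of the 8 immune markers, 7 were in the tables.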

Additional observations from a re-analysis of the deposited data

Results flagged for a closer look

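Some of the 10 genes differed in opposite directions in blastocysts and in the luminal layer, each beyond counting error. With 1 library per group, the difference between tissues was not tested, and each tissue has its own scaling. For eKO against control, the blastocyst log2 ratio exceeded the luminal one by 1.09 for *Klf2*, by 1.25 for *Klf4* (0.27 and -0.98) and by 1.30 for *Tfcp2l1* (0.22 and -1.08). For rLif-treated eKO against control, it exceeded the luminal one by 2.15 for *Klf2* (0.43 and -1.72), by 0.90 for *Klf4* (0.66 and -0.25) and by 0.28 for *Tfcp2l1* (0.10 and -0.18). With a luminal 0 set to a floor of 3 counts, the difference was 1.71 for *Sox2*. Its luminal count was 0 with rLif and 8 in control. For rLif-treated against untreated eKO, the difference was 1.06 for *Klf2* (0.34 and -0.72) and, at the same floor, 2.67 for *Sox2*. It was -1.03 for *Tfcp2l1*, which was lower in blastocysts (-0.13) and higher in the luminal layer (0.90). The luminal ratios of *Sox2* rest on at most 19 counts. The libraries are those labelled eKO and control, and the luminal *Lif* counts (0, 28 and 0) did not follow the labels, whereas those of *Socs3* (1482, 153 and 4242) did. Since the study places Lif in the uterine glands at this stage, these few *Lif* counts are a weak check of the labels.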

How the results depend on the processing

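The 3 medians of the 10 genes in blastocysts stayed between the median lower and upper interval bounds of the 10 genes under all 6 alternatives run (3 other scalings, a minimum of 50 counts, a pseudocount of 2 CPM, and leaving out *Klf2*, *Klf4* and *Tfcp2l1*, which was chosen after seeing the data). The number of the 10 genes called in blastocysts was 0 under every alternative except a log2 limit of 0, which gave 7 (eKO over control), 10 (rLif over control) and 10 (rLif over eKO). In the luminal layer each of these comparisons had 1 call. A log2 limit of 0 gave 3, 4 and 4. The first became 0 with upper-quartile scaling, with a limit of 2 and with edgeR's exact test at an assumed dispersion of 0.1, and 3 with the point ratio. The second became 0 with a limit of 2 and with the exact test, and 2 with the point ratio. The last became 0 with a minimum of 50 counts. Of 160 log2 ratios of single genes recomputed under other scalings or a pseudocount, 154 stayed within their interval. The other 6 were luminal ratios of *Tfcp2l1* and *Klf4*. The summed level of the 10 genes in control, eKO and rLif-treated blastocysts was 1642, 1724 and 2103 TPM without *Tdgf1*, and 1867, 1934 and 2212 TPM without *Klf2*, *Klf4* and *Tfcp2l1*, in each case highest with rLif. No paired analysis was possible because each group had 1 library. No library could be left out for the same reason. Depth was not limiting for the 10 genes in blastocysts, whose lowest count was 943, but pools of animals were not replicated, and the spread between pools is unknown.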
